A study of Mus musculus with 6 samples.

Results

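Chemokines are small secreted proteins that guide the migration of leukocytes and other cells along a gradient, and they act through receptors with a G protein on the inner side of the membrane. CC chemokines such as CCL2, CCL3 and CCL4 are made by myeloid cells during inflammation and attract monocytes, macrophages and lymphocytes. In the brain, neurons make CX3CL1 (fractalkine), whose receptor CX3CR1 is carried by microglia, and endothelial and meningeal cells make CXCL12, whose receptor CXCR4 steers precursors and blood cells. The 9 genes described here were chosen by symbol from the 32285 genes in the deposited matrices. They were the inflammatory ligands Ccl2, Ccl3, Ccl4 and Cxcl10, the ligands of the resting brain Cxcl12, Cxcl14 and Cx3cl1, and the receptors Cx3cr1 and Cxcr4. Another 51 chemokine and receptor genes served as the rest of the family.

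The genes were measured by single-nucleus RNA sequencing (snRNA-seq) in a mouse model of hydrocephalus, which is made by injection of lysophosphatidic acid (LPA), a signaling lipid of blood. C57BL/6 S-56 mice were injected at P7 with 5 µl of LPA or of the vehicle, 0.01% bovine serum albumin, into the right lateral ventricle, and brains without olfactory bulbs and cerebellum were collected at P15. The concentration of LPA used for these brains is not given in the sources used here, and the methods give flunixin meglumine, an anti-inflammatory painkiller, after the surgery with no difference between groups. Each of the 3 LPA and 3 vehicle libraries came from 1 sample of nuclei sorted as negative for NeuN, a neuronal nuclear protein, and was read with the 10x Genomics 3′ kit.

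The LPA libraries held 8836 to 10606 barcodes and 50737541 to 54715094 unique molecular identifiers (UMIs, each counting 1 captured RNA molecule), and the vehicle libraries 8639 to 12894 barcodes and 48852970 to 65688644 UMIs. After filtering, 57443 nuclei remained, with medians of 4001 to 4578 UMIs in LPA and 3732 to 4513 in vehicle libraries. Clusters were named from marker lists, so a name such as astrocytes stands for astrocyte-like nuclei, and 48820 nuclei (85.0%) received a name. Despite the NeuN sort, 5615 LPA and 7739 vehicle nuclei carried neuronal markers. Pairs of libraries, within and between the groups, shared 268 to 303 barcode sequences, 2.13% to 3.47% of the smaller library. The origin of the shared sequences was not tested. Levels are given as CPM, the UMIs of a gene scaled by all UMIs of a cell type in a library, and intervals and lower limits cover counting error only.

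Of the 9 genes, 7 had a promoter in the RefSeq table (GRCm38.p6), in which the 250 bases before the start were searched on both strands for κB sites by name, for the AP-1 letters TGANTCA, for the interferon element (ISRE) and for the PU.1 letters GAGGAAG. The Ccl3 and Cxcl10 promoters are shown because Ccl3 was called higher in LPA microglia and Cxcl10 had most of its UMIs in LPA libraries. Capitals mark the motif matches, both sequences lie on the minus strand and they read 5′ to 3′.
Ccl3, chr11:83649379-83649628: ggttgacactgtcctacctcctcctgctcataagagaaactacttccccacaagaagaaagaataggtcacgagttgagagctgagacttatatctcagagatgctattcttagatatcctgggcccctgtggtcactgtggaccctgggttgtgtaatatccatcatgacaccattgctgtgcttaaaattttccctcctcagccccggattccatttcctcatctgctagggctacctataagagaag
Cxcl10, chr5:92348890-92349139: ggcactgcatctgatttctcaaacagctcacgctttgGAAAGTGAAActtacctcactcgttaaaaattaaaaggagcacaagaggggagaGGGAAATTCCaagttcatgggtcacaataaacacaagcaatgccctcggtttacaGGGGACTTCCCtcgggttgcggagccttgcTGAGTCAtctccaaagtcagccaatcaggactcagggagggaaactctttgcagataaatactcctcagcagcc
The Cxcl10 window held an ISRE match 213 to 204 bases before the start, κB matches at 159 to 150 and 104 to 94 bases, the second made of overlapping matches, and an AP-1 match at 74 to 68 bases. The Ccl3 window held none of these letters. Among the other 5 promoters, Cxcl14 held an ISRE match and Cx3cl1 a PU.1 match. Of all 32851 promoters, 7.25% held a κB match, 6.75% an AP-1, 2.98% an ISRE and 10.6% a PU.1 match, so the matches describe the letters of these windows and no binding was measured.

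In vehicle libraries each ligand and receptor of the resting brain had its highest level in a different group of nuclei. Since clusters were made from the same nuclei, these levels are a description with no test. Cxcl12 (chr6:117168535-117181367) was highest in endothelial cells at 857 CPM ± 296 (SD, n = 3 libraries, as for the levels that follow), then in meningeal cells at 98.1 ± 3.46 and mural cells at 29.7 ± 11.9. The endothelial and meningeal libraries did not overlap, and neither did the meningeal and mural ones, whereas each later neighbor in the order overlapped until neurons at 6.79 ± 0.479. Cxcl14 (chr13:56288643-56296551), a chemokine made by epithelia and brain cells, was highest in astrocytes at 89.7 ± 5.98 CPM, apart from neurons at 17.4 ± 2.69. Cx3cl1 (chr8:94772009-94782427) was highest in immature interneuron precursors at 78.8 ± 13.5 CPM and neurons at 66.3 ± 11.1, whose libraries overlapped, and both stood apart from endothelial cells at 24.7 ± 14.6. Neurons held 62.0% of the vehicle UMIs of Cx3cl1 and 31.5% of the UMIs of all genes.

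**Figure D1:**
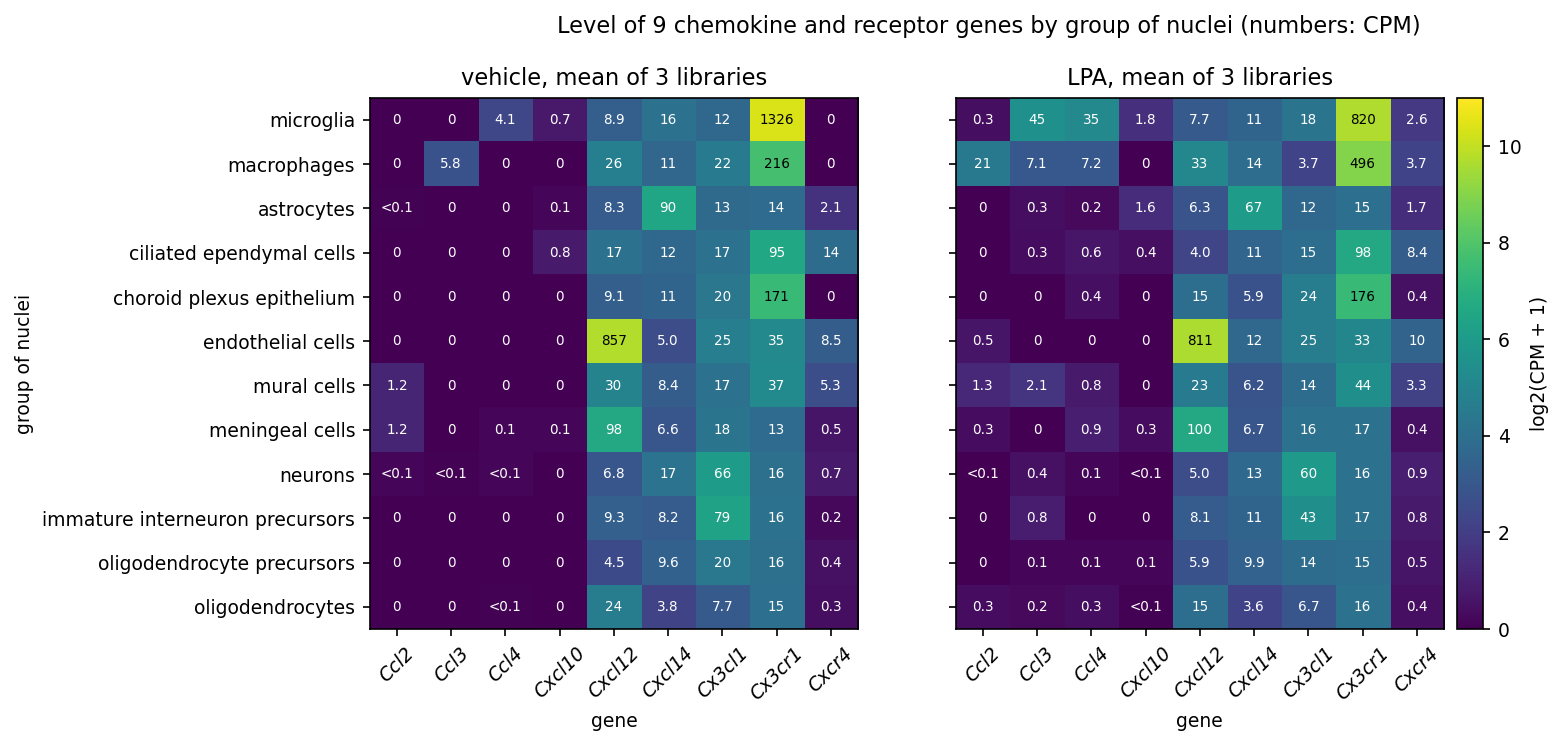
Heat map of the 9 genes (columns) in 12 groups of nuclei (rows) for vehicle libraries (left) and LPA libraries (right); color is log2(CPM + 1), and the number in each cell is the mean CPM of 3 libraries. Cx3cr1 is brightest in microglia (1326 CPM in vehicle), Cxcl12 in endothelial cells (857 CPM) and Cxcl14 in astrocytes, while Ccl3 and Ccl4 reach over 30 CPM only in microglia of LPA libraries, and cells of few UMIs, as in macrophages, rest on 1 to 4 UMIs for Ccl2, Ccl3 and Ccl4.

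The receptor Cx3cr1 (chr9:119901616-120069879, minus strand) was highest in microglia at 1326 CPM ± 234 (SD, n = 3), apart from macrophages at 216 ± 48.4. The next groups were choroid plexus epithelium at 171 ± 8.81 CPM, whose libraries overlapped those of macrophages, and ciliated ependymal cells at 95.1 ± 10.2 CPM, apart from both neighbors. The choroid plexus level was 12.9% of that in microglia, whereas the homeostatic microglia markers had a median of 1.24% there, and in ciliated ependymal cells these shares were 7.17% and 1.15%. The Cx3cr1 gene spans 168 kb in the annotation and overlaps Gorasp1, Csrnp1 and Xirp1 on its own strand and Wdr48, Ttc21a and others on the opposite strand. Ttc21a, a cilia gene, had 518 CPM in ciliated ependymal cells and 55.5 CPM in choroid plexus epithelium but 0.703 CPM in microglia. The part of overlapping genes in the Cx3cr1 counts was not tested. Cxcr4 (chr1:128588199-128592293) was sparse, with 14 ± 6.55 CPM in ciliated ependymal cells, 8.48 ± 1.31 in endothelial cells, 5.25 ± 4.43 in mural cells and 2.08 ± 0.231 in astrocytes, the first of these neighbors to stand apart from the group below it.

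The genes whose vehicle levels over the 12 groups were most like those of a given gene were sought among 17428 genes by the Pearson correlation of log2(CPM + 1). The 12 points come from the same 3 libraries and differ in depth. For Cxcl12 they were Fam43a (r = 0.932), Tead4 and Itm2a, for Cxcl14 Gdpd2 (0.938), Lhx2 and Slc6a11, a GABA transporter of astrocytes, and for Cx3cl1 Ttc3 (0.939), Cntnap4 and Sphkap. For Cx3cr1 they were Rubcnl (0.967), Gm26542 and Rp2, and for Cxcr4 Tm4sf1 (0.889), Dad1 and Gja5, a connexin of arteries.

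Ccl3 and Ccl4, which encode inflammatory CC chemokines, rose in microglia of LPA-injected mice. Ccl3 (chr11:83647844-83649355, minus strand) and Ccl4 (chr11:83662584-83664683, plus strand) lie 13228 bases apart. Microglia of libraries LPA 1, LPA 2 and LPA 3 held 32, 47 and 38 UMIs of Ccl3, and those of vehicle 1, vehicle 2 and vehicle 3 held 0, 0 and 0. The LPA level was at least 11.4-fold higher, taking 3 counts over the vehicle group as the limit (edgeR quasi-likelihood test, Benjamini-Hochberg adjusted p = 3.32e-07). For Ccl4 the same libraries held 33, 30 and 26 UMIs against 0, 2 and 1. The ratio of the summed counts per UMI was 8.70 (95% counting interval 2.88 to 43.0), and the fitted log2 fold-change was 3.05 (SE 0.59, adjusted p = 0.000298 by edgeR). Groups overlapped for neither gene. When nuclei over 1% mitochondrial UMIs were included and clustering was repeated, the immune sub-cluster led by Ccl3, with 261 LPA and 9 vehicle nuclei, had no name, and microglia then held 15, 25 and 8 UMIs of Ccl3 against 0, 0 and 0, under the filter on low counts. In microglia 4 of the 9 genes passed the filter on low counts, of which 2 were called higher and 1, Cx3cr1, lower, where 9.18% of 8866 genes tested were called. Ccl3 and Ccl4 passed that filter through the LPA libraries.

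Ccl3 and Ccl4 were not spread evenly over microglia. Microglia comprised activated microglia, led by Gpnmb, Atp6v0d2 and Spp1, and homeostatic microglia in sub-clusters led by Selplg and Tmem119, by Asb10 and Cd83, and by Oasl2. Activated microglia numbered 111, 165 and 166 nuclei in LPA libraries and 0, 1 and 1 in vehicle libraries, and the sub-cluster led by Asb10 numbered 57, 82 and 94 against 1, 9 and 1. These 2 sub-clusters therefore had almost no vehicle nuclei to compare. In LPA libraries Ccl3 had 19, 35 and 18 UMIs in activated microglia (73.7, 93.2 and 49.1 CPM) and 12, 10 and 20 UMIs in the sub-cluster led by Asb10 (101, 59.7 and 114 CPM). The sub-cluster led by Selplg, with 584 LPA nuclei, held 1, 2 and 0 UMIs. Ccl4 had 22, 19 and 19 UMIs in activated microglia (85.3, 50.6 and 51.8 CPM), 9, 11 and 5 in the Asb10-led (75.6, 65.7 and 28.6 CPM) and 1, 0 and 2 in the Selplg-led sub-cluster. Per UMI, Asb10-led nuclei were above activated microglia in LPA 1 and LPA 3 for Ccl3 and in LPA 2 for Ccl4, and below in the others.

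Ccl3 was detected in 42 of 442 activated microglia (9.50%, exact binomial interval 6.93% to 12.6%) and in 23 of 233 Asb10-led nuclei (9.87%, 6.36% to 14.4%) of the LPA libraries, but in 3 of 584 Selplg-led nuclei (0.514%, 0.106% to 1.49%). In vehicle libraries 0 of 495 Selplg-led nuclei had a UMI, which allows a share of up to 0.606% of nuclei with a UMI by a limit of 3 counts and up to 0.742% by the exact binomial interval. Oligodendrocytes, taken as a cell type that should lack CCL3, had a Ccl3 UMI in 5 of 3697 LPA nuclei (0.135%, 0.0439% to 0.315%) at a median of 5984 UMIs per nucleus, against medians of 2162.5 in activated, 1970 in Asb10-led and 1732 in Selplg-led nuclei. Thinned to 1000 UMIs per nucleus, the shares were 5.91% in activated (2 of 442 nuclei too shallow), 5.38% in Asb10-led (10 too shallow), 0.356% in Selplg-led nuclei (22 too shallow) and 0.0541% in oligodendrocytes (3 too shallow). For Ccl4 the unthinned shares were 9.05% in activated, 8.58% in Asb10-led and 0.514% in Selplg-led nuclei and 0.162% in oligodendrocytes. The unthinned interval of the Selplg-led nuclei overlapped that of oligodendrocytes for both genes, but these intervals pool nuclei of 3 libraries and ignore the difference in depth. Per UMI, Selplg-led nuclei of LPA libraries had 2.46 ± 2.32 CPM (SD) of Ccl3 and 3.66 ± 4.18 of Ccl4. Oligodendrocytes had 0.229 ± 0.098 and 0.331 ± 0.260 CPM, and the Selplg-led levels rest on 3 UMIs per gene. Of the 1314 LPA microglia, 68 had a Ccl3 UMI and 64 a Ccl4 UMI, with 8 nuclei having both. Ccl4 was seen in 11.8% of nuclei with Ccl3 and in 4.49% of those without, but this pools the sub-clusters. Within activated microglia 5 of 42 nuclei with Ccl3 had Ccl4 (11.9%), against 8.75% of those without. In Asb10-led nuclei it was 3 of 23, against 8.095%, and in Selplg-led nuclei 0 of 3, against 0.516%. Microglia with either gene had a median of 2167.5 UMIs, against 1878 in those with neither. The part of sub-cluster and depth in the pooled contrast was not tested.

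**Figure D2:**
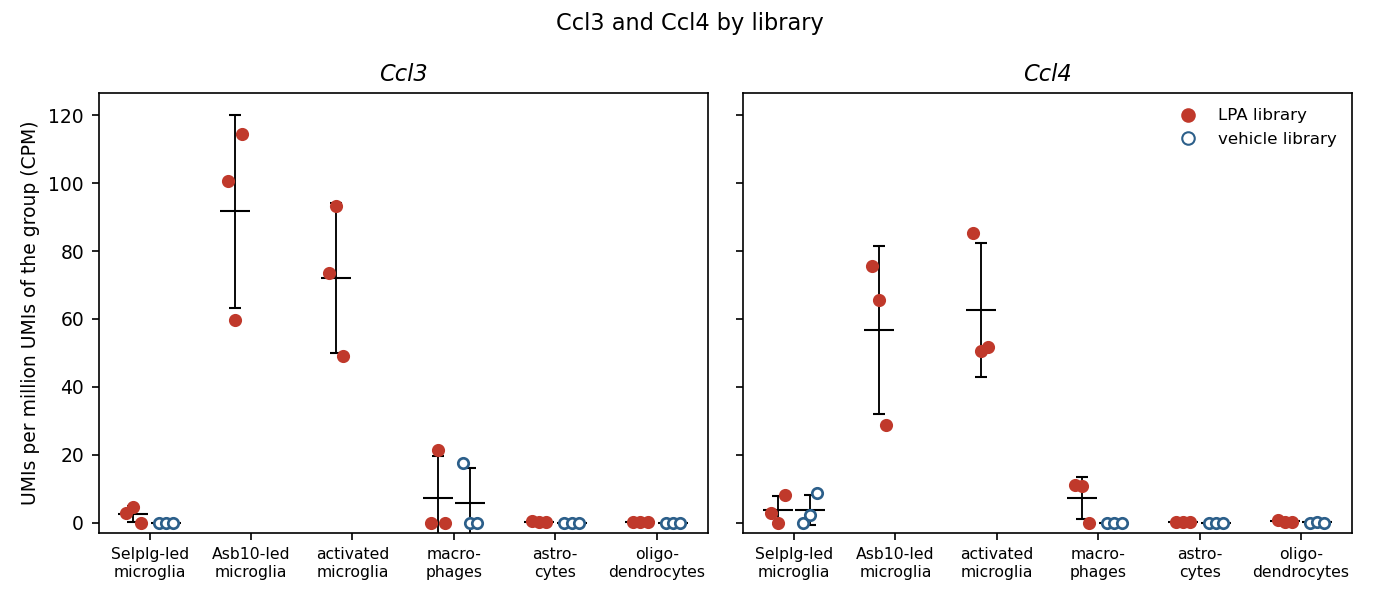
Ccl3 (left) and Ccl4 (right) in CPM for the microglial sub-clusters led by Selplg and Asb10, activated microglia, macrophages, astrocytes and oligodendrocytes; each point is a library (LPA filled, vehicle open), bars are the mean and SD of 3 libraries, and libraries with under 10 nuclei of a group are left out. Ccl3 lies between 49.1 and 114 CPM in activated and Asb10-led microglia of all 3 LPA libraries, and the macrophage points above 0 stand for 1 or 2 UMIs.

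Within homeostatic microglia as a whole, Ccl3 had 13, 12 and 20 UMIs in LPA and 0, 0 and 0 in vehicle libraries, which is at least 7.08-fold higher, and Ccl4 had 11, 11 and 7 against 0, 2 and 1 (ratio 4.57, 1.42 to 23.4). Both missed the filter on low counts there and have an exact permutation p of 0.1, the smallest that 3 against 3 libraries allow. Cx3cr1 was the 1 member tested in homeostatic microglia and was not called, where 1.5% of 7795 genes were. Without the Asb10-led and Oasl2-led sub-clusters, both rich in LPA nuclei, Ccl3 had 3 UMIs against 0 and Ccl4 had 3 against 2, with a Ccl4 ratio of 1.04 (0.119 to 12.4). Macrophages, which shared the immune cluster, held Ccl3 UMIs of 0, 2 and 0 against 1, 0 and 0, and this difference could not be seen at this depth. Of the 6 neutrophil markers, 1 had UMIs in LPA and 2 in vehicle microglia, summing to 536 to 564 CPM and 514 to 604 CPM, with S100a8, S100a9, Retnlg and Ly6g at 0. Of the 5 monocyte and dendritic cell markers 3 had UMIs in both groups (10.5 to 18.4 and 16.1 to 42.7 CPM), with Ly6c2 and Cd209a at 0. T and NK cell markers had UMIs for 4 of 7 in LPA and 2 in vehicle microglia (2.63 to 4.89 and 0 to 4.22 CPM), with Cd3e, Cd3g and Nkg7 at 0. B cell markers had UMIs for 3 of 5 in LPA and 2 in vehicle microglia (166 to 211 and 281 to 335 CPM), with Ms4a1 and Pax5 at 0. None of these lists was tested for a part in the result. The 9 macrophage markers summed to 1337 to 1723 CPM in LPA microglia and to 555 to 598 CPM in vehicle microglia, and their part in the result was not tested. Of the 11 immediate-early and stress genes, which rise during tissue handling, 3 were tested in microglia and 0 were called by edgeR (2 at an unadjusted p under 0.05), with summed levels of 80.7 to 108 CPM in LPA and 54.9 to 177 CPM in vehicle libraries.

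Summed over all nuclei kept, Ccl3 had 64, 66 and 75 UMIs in LPA and 1, 5 and 1 in vehicle libraries (log2 fold-change 4.87, SE 0.36, edgeR adjusted p = 0.000411). Ccl4 had 68, 47 and 58 against 1, 10 and 4 (log2 fold-change 3.58, SE 0.41, edgeR adjusted p = 0.00288). Groups overlapped for neither gene. Here 8 members were tested, with Ccl3, Ccl4 and Cxcl10 passing the filter through the LPA libraries. Of these 8, 2 were called higher, where 5.62% of 20207 genes were called. More cells of a type and more RNA per cell cannot be told apart in such a sum. Microglia held 57.1% of the LPA UMIs of Ccl3 and 51.4% of those of Ccl4 in 2.02% of all UMIs, and nuclei without a name held another 25.9% and 32.9%. Outside immune nuclei the counts were small: neurons had 6, 6 and 3 UMIs of Ccl3 against 0, 1 and 1 (ratio 8.60, 2.00 to 77.5) and astrocytes 3, 2 and 1 against 0, 0 and 0.

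Ccl2 (chr11:82035571-82037453), which encodes a ligand of CCR2 on monocytes, showed no difference that was detectable in the nuclei kept at this depth. It had 5, 4 and 10 UMIs in LPA and 8, 8 and 1 in vehicle libraries, a ratio of 1.17 (0.575 to 2.39, exact permutation p = 0.9), and was too low for the edgeR test. The groups overlapped. Macrophages held 0, 1 and 3 UMIs against 0, 0 and 0, and meningeal cells 1, 0 and 0 against 7, 1 and 0. Over all deposited barcodes, filters left aside, Ccl2 had 21, 22 and 32 UMIs against 12, 22 and 19 (ratio per UMI 1.52, 1.05 to 2.20). Per UMI the libraries did not overlap, at 0.414, 0.412 and 0.585 against 0.246, 0.335 and 0.340 CPM (exact permutation p = 0.1, the smallest possible). Of these UMIs, 53 in LPA and 30 in vehicle libraries lay in barcodes over 1% mitochondrial UMIs. Most of those came from clusters led by Ecrg4 and by Lyz2, which had similar numbers of such barcodes in every library. The libraries may not be independent there, which the permutation test and the interval do not allow for. The gene overlaps Gm17268 on the opposite strand.

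**Figure D3:**
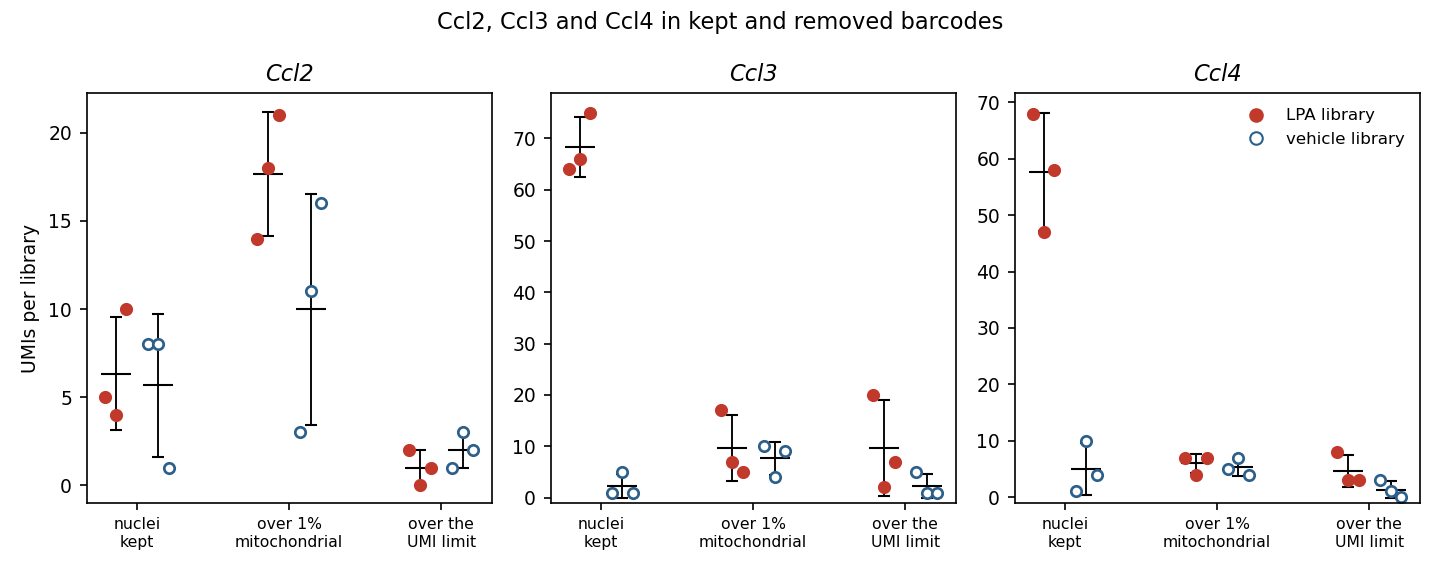
UMIs of Ccl2, Ccl3 and Ccl4 per library in the nuclei kept, in barcodes removed for over 1% mitochondrial UMIs and in barcodes removed for a UMI count over the limit; points are libraries (LPA filled, vehicle open), bars are the mean and SD of 3 libraries, and each panel has its own axis. Most Ccl3 and Ccl4 UMIs of LPA libraries lie in nuclei kept, whereas Ccl2 has 14 to 21 UMIs in LPA barcodes over the mitochondrial limit and 4 to 10 in nuclei kept.

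Cxcl10 (chr5:92346638-92348889, minus strand), an interferon-inducible ligand of CXCR3 on T cells, had 12, 12 and 22 UMIs in LPA and 1, 11 and 1 in vehicle libraries over all nuclei kept. Each LPA library was above each vehicle library, but vehicle 2 lay close to LPA 1 and LPA 2, and the log2 fold-change of 1.87 (SE 0.64) was not called (edgeR adjusted p = 0.134). Cxcl10 passed the filter on low counts through the LPA libraries. Without vehicle 2, which held 11 of the vehicle UMIs, the log2 fold-change was 3.76 and was called. Astrocytes held 63.0% of the LPA UMIs, with 7, 3 and 19 against 0, 2 and 0 (ratio 11.1, 2.80 to 95.8, exact permutation p = 0.1, the smallest possible). These UMIs came from 9 of 5409 LPA astrocytes (0.166%) and 2 of 4929 vehicle astrocytes (0.0406%), with median depths of 3346 and 2798 UMIs. In LPA 1 a single nucleus held all 7, and in LPA 3 a single nucleus held 8 of 19. In oligodendrocytes Cxcl10 had 0, 0 and 1 UMIs in LPA libraries. Cxcl10 lies within Art3 on the opposite strand, and microglia had 1, 3 and 1 UMIs against 0, 1 and 0.

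Cxcl12, the ligand of CXCR4, was lower in oligodendrocytes of LPA-injected mice. Among the nuclei kept, it was not called in endothelial or meningeal cells, where it is most abundant. In oligodendrocytes it had 14.5, 12.7 and 17.3 CPM in LPA and 23.0, 22.2 and 25.8 CPM in vehicle libraries, with no overlap. The log2 fold-change was -0.65 (SE 0.12, edgeR adjusted p = 0.00671), and without LPA 2 the call was lost (-0.54, adjusted p = 0.0797). Of 4 members tested in oligodendrocytes this was the 1 called, where 2.51% of 14211 genes were, and the median of the 4 was -0.12 beside -0.01 for all genes tested. The decrease was also called within the largest cluster, led by Prr5l, at 12.6, 13 and 11.2 against 20.6, 19.3 and 22.9 CPM (log2 fold-change -0.75, edgeR adjusted p = 0.0317). Of all genes tested in that cluster, 100 of 11779 were called. In the cluster led by Opalin, a myelin gene, the level was higher in both groups at 47.9, 37.8 and 57.3 against 66.5, 54.8 and 66.7 CPM, and the groups overlapped (adjusted p = 0.497 by edgeR). In oligodendrocytes the meningeal markers summed to 25.9 to 36.2 CPM in LPA and 48.3 to 59.7 CPM in vehicle libraries, and the endothelial markers to 47.8 to 54.9 and 46.3 to 51.0 CPM. The part of meningeal RNA in the result was not tested.

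Endothelial cells had 824, 671 and 938 CPM of Cxcl12 in LPA and 1199, 675 and 699 CPM in vehicle libraries (log2 fold-change -0.10, SE 0.16, edgeR adjusted p = 0.940). The groups overlapped, and vehicle 1 stood above the other 5 libraries. Without vehicle 1 the difference was 0.23, and with nuclei over the mitochondrial limit included it was -0.54 and was called (adjusted p = 0.0483 by edgeR). In that clustering a vascular cluster led by Adgrl4 and Flt1 held 8, 9 and 22 LPA and 22, 47 and 59 vehicle barcodes over the limit. They had 238 UMIs of Cxcl12 in LPA and 1041 in vehicle libraries, beside 1537 and 1317 in the endothelial nuclei kept. Their part in the result was not tested. Of 3 members tested in endothelial cells 0 were called by edgeR (0 at an unadjusted p under 0.05), where 0.166% of 8430 genes were. Within endothelial cells the level differed between sub-clusters, with 2212, 2146 and 3140 against 3434, 2065 and 2474 CPM in nuclei led by Sema3g and Bmx, genes of arterial endothelium, and 405, 406 and 363 against 579, 375 and 292 CPM in nuclei led by Tfrc. Meningeal cells had 114, 80.0 and 105 CPM in LPA and 100, 94.1 and 99.7 CPM in vehicle libraries (log2 fold-change 0.02, SE 0.12, edgeR adjusted p = 0.979). Of 4 members tested in meningeal cells 0 were called by edgeR (0 at an unadjusted p under 0.05), where 1.07% of 12437 genes were. Mural cells had 2 members tested and 0 called by edgeR (0 at an unadjusted p under 0.05), where 0.166% of 7839 genes were, with Cxcl12 at 22.6, 19.4 and 27.0 against 37.5, 16 and 35.5 CPM.

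In ciliated ependymal cells, which line the ventricles, Cxcl12 had 2, 7 and 3 UMIs in LPA and 9, 10 and 9 in vehicle libraries. The groups did not overlap, and the ratio of the summed counts per UMI was 0.243 (0.112 to 0.493, exact permutation p = 0.1, the smallest possible). The gene missed the filter on low counts there, and 2 members tested gave 0 calls by edgeR (0 at an unadjusted p under 0.05), where 3.99% of 10781 genes were called. Without the filter on low counts the fitted log2 fold-change was -2.00 and was called. The mitochondrial limit left 233, 226 and 268 LPA and 221, 109 and 165 vehicle nuclei of this type. With that limit lifted, a ciliated ependymal cluster held 4, 16 and 42 LPA and 104, 73 and 113 vehicle barcodes over it. The log2 fold-change was then -1.73 and was called. In neurons Cxcl12 had 4.96, 5.41 and 4.78 CPM against 6.54, 7.34 and 6.49 CPM, with no overlap, and was not called (log2 fold-change -0.41, edgeR adjusted p = 0.595).

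Cxcl14 was lower in astrocytes of LPA-injected mice. It had 62.8, 64.2 and 72.4 CPM in LPA and 96.5, 85.1 and 87.6 CPM in vehicle libraries, with no overlap (log2 fold-change -0.41, SE 0.08, edgeR adjusted p = 0.00376). Of 5 members tested in astrocytes this was the 1 called, where 8.28% of 14608 genes were, and the median of the 5 was -0.24 beside -0.01 for all genes tested. Astrocytes fell into clusters led by Slc1a2, by Slc6a11 and by Gfap, a filament gene of reactive and white matter astrocytes. The Gfap-led cluster made up 25.1%, 24.7% and 26.5% of astrocytes in LPA and 11.4%, 12.3% and 12% in vehicle libraries, and it had the lowest Cxcl14 level.

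Fitted within each cluster, Cxcl14 was called in none of the 3 by edgeR (0 with an adjusted p under 0.05). Of all genes, 337 of 12886 were called in the Slc1a2-led, 43 of 11382 in the Slc6a11-led and 946 of 10546 in the Gfap-led cluster. The Slc1a2-led cluster had 80.7, 82.1 and 94.3 against 118, 95.3 and 99.3 CPM (log2 fold-change -0.23, adjusted p = 0.254 by edgeR), and the Slc6a11-led cluster 59.9, 53.6 and 58.0 against 75.6, 82.1 and 83.5 CPM (-0.47, adjusted p = 0.119 by edgeR). In the Gfap-led cluster the values lay the other way, at 32.5, 39.3 and 36.7 against 28.2, 25.3 and 21.0 CPM (0.65, adjusted p = 0.133 by edgeR). LPA and vehicle libraries did not overlap in any of the 3 clusters, though none of these differences was called. The decrease over all astrocytes goes together with both lower CPM in the Slc1a2-led and Slc6a11-led clusters and a larger Gfap-led share. The separate parts of these were not tested. In neurons Cxcl14 had 13.4, 13.6 and 10.6 against 20.2, 17.0 and 14.9 CPM, with no overlap and no call (log2 fold-change -0.45, edgeR adjusted p = 0.522). Of 5 members tested in neurons 0 were called by edgeR (2 at an unadjusted p under 0.05), where 0.0894% of 16771 genes were.

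**Figure D4:**
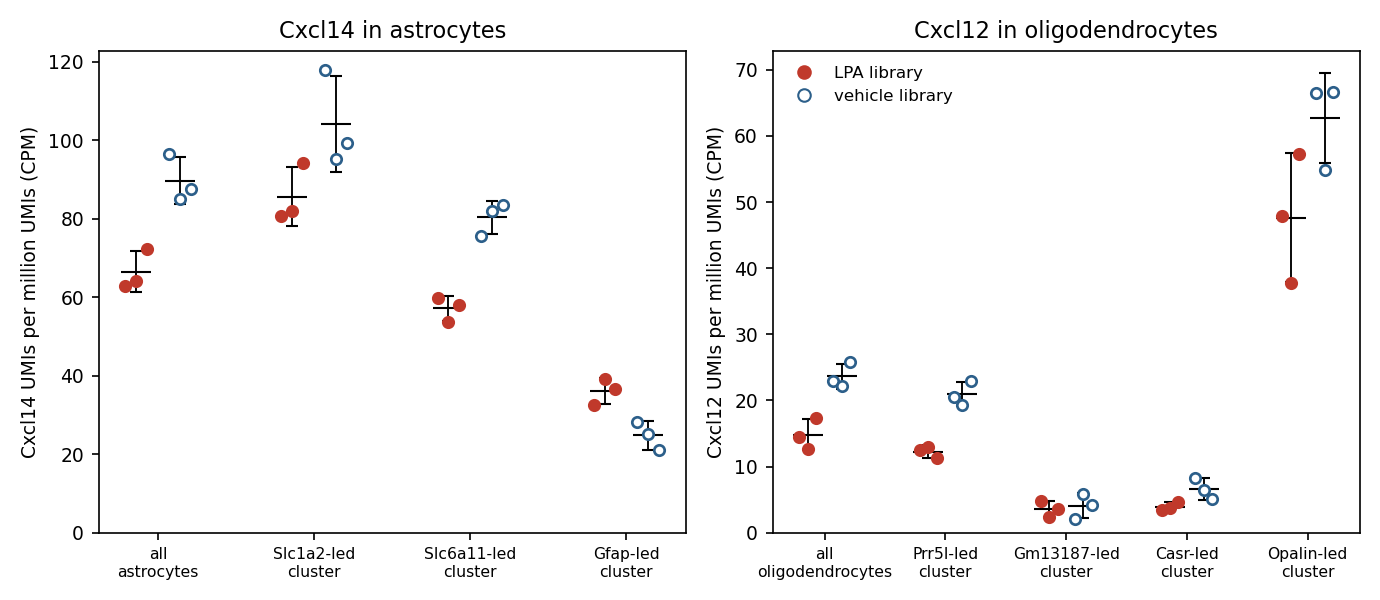
Cxcl14 in astrocytes (left) and Cxcl12 in oligodendrocytes (right) in CPM, over all nuclei of the type and within each of its clusters, named by their leading gene; points are libraries (LPA filled, vehicle open) and bars are the mean and SD of 3 libraries. Cxcl14 is lower in LPA libraries in the Slc1a2-led and Slc6a11-led clusters and higher in the Gfap-led one, and Cxcl12 is lower in the Prr5l-led cluster, at 11.2 to 13 against 19.3 to 22.9 CPM.

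Cx3cl1, the membrane-bound ligand of CX3CR1, was called in no cell type. In neurons, its main source, it had 60.0, 59.9 and 61.2 CPM in LPA and 79.0, 58.3 and 61.7 CPM in vehicle libraries (log2 fold-change -0.11, SE 0.09, edgeR adjusted p = 0.838), and the groups overlapped. In immature interneuron precursors it had 27.1, 38.8 and 63.2 against 86.2, 63.2 and 86.9 CPM, where LPA 3 and vehicle 2 met (log2 fold-change -0.84, SE 0.26, edgeR adjusted p = 0.142). It was the 1 member tested in these precursors, where 0.944% of 8159 genes were called, and it passed without LPA 3 (-1.29, adjusted p = 0.0109 by edgeR). In oligodendrocyte precursors it had 15.8, 15.2 and 10.8 against 19.4, 19.9 and 21.8 CPM, with no overlap (log2 fold-change -0.51, edgeR adjusted p = 0.556). Of 4 members tested there 0 were called by edgeR (1 at an unadjusted p under 0.05), where 0.165% of 12114 genes were. Choroid plexus epithelium had 3 members tested and 0 called by edgeR (0 at an unadjusted p under 0.05), where 0.0396% of 10089 genes were.

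Cx3cr1, a receptor that marks resting microglia, was lower in microglia of LPA-injected mice taken as a whole. It had 854, 851 and 755 CPM in LPA and 1593, 1229 and 1157 CPM in vehicle libraries, with no overlap (log2 fold-change -0.70, SE 0.12, edgeR adjusted p = 7.03e-05). The level differed between kinds of microglia: in LPA libraries it was 314, 317 and 387 CPM in activated microglia, 806, 968 and 904 CPM in the Asb10-led sub-cluster and 1251, 1279 and 1158 CPM in the Selplg-led one. Vehicle microglia were mostly Selplg-led nuclei, at 1613, 1239 and 1210 CPM, and there the groups overlapped (log2 fold-change -0.15, edgeR adjusted p = 0.899). Over all homeostatic microglia the values were 1132, 1160 and 1053 against 1593, 1229 and 1205 CPM, without overlap, and were not called (-0.27, SE 0.12, edgeR adjusted p = 0.366). In microglia the homeostatic markers summed to 4104 to 4750 CPM in LPA and 6252 to 7006 CPM in vehicle libraries, and the activated markers to 1478 to 2057 and 91.5 to 305 CPM.

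In macrophages Cx3cr1 lay the other way, with 34, 45 and 37 UMIs in LPA and 14, 19 and 10 in vehicle libraries (374, 482 and 631 against 246, 160 and 241 CPM). The groups did not overlap, and the log2 fold-change of 1.18 (SE 0.30) was not called (edgeR adjusted p = 0.212). It was the 1 member tested in macrophages, where 0.214% of 1870 genes were called, and these libraries held 22 to 64 nuclei each. In the same nuclei the macrophage markers summed to 8384 to 13702 CPM in LPA and 13806 to 17215 CPM in vehicle libraries, and the homeostatic microglia markers to 1190 to 1943 and 821 to 1185 CPM, so their part in the difference was not tested. Over all nuclei kept Cx3cr1 had a log2 fold-change of 0.55 (SE 0.16, edgeR adjusted p = 0.0908) and was called by DESeq2 (0.56, adjusted p = 0.00500), and microglia were 1314 LPA and 520 vehicle nuclei. Microglia held 33.8% of its LPA UMIs and 21.7% of its vehicle UMIs.

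**Figure D5:**
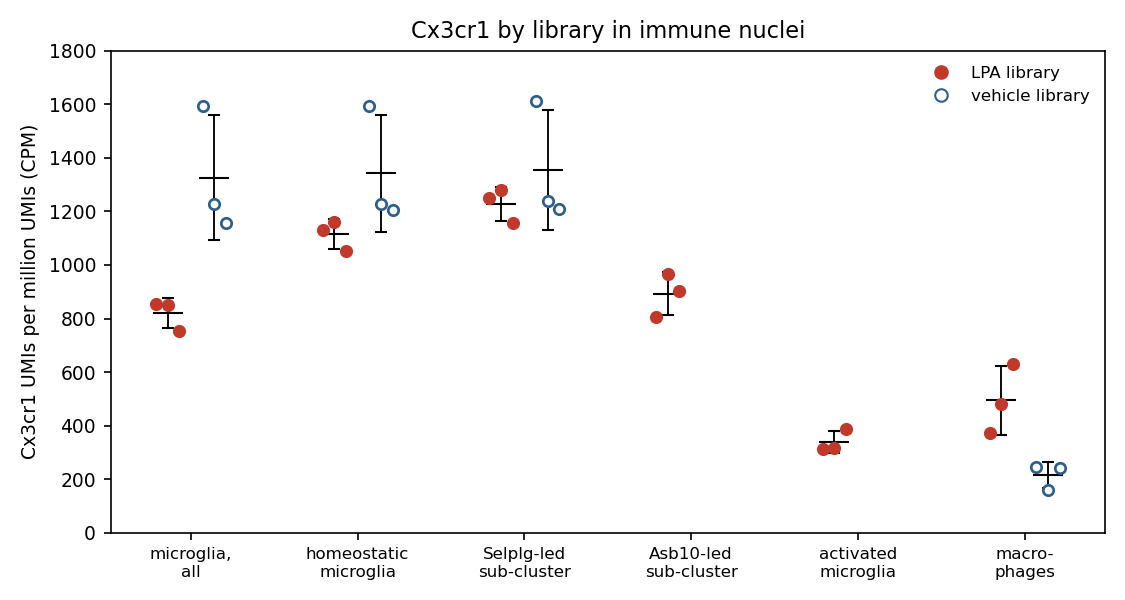
Cx3cr1 in CPM for all microglia, homeostatic microglia, their Selplg-led and Asb10-led sub-clusters, activated microglia and macrophages; points are libraries (LPA filled, vehicle open), bars are the mean and SD of 3 libraries, and libraries with under 10 nuclei of a group are left out. All microglia lie at 755 to 854 CPM in LPA and 1157 to 1593 CPM in vehicle libraries, the Selplg-led sub-cluster overlaps between the groups, and macrophages are higher in LPA libraries.

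Cxcr4, the receptor of CXCL12, was not called in astrocytes, in neurons or over all nuclei kept. It missed the filter on low counts in the other cell types, among them ciliated ependymal, endothelial and mural cells, where its level was highest. Over all nuclei it had 55, 59 and 62 UMIs in LPA and 59, 52 and 47 in vehicle libraries (log2 fold-change 0.20, SE 0.21, edgeR adjusted p = 0.647), and the groups overlapped. Ciliated ependymal cells had 9, 8 and 10 UMIs against 17, 3 and 8 (ratio 0.546, 0.310 to 0.962), also with overlap. Microglia had 1, 4 and 2 UMIs against 0, 0 and 0, and since vehicle microglia were few, a count of 0 there allows a level above that of the LPA libraries. In astrocytes the log2 fold-change was -0.24 (SE 0.36, edgeR adjusted p = 0.774). Within the Gfap-led astrocytes Cxcr4 had 3, 13 and 7 UMIs against 5, 7 and 4, or 1.91, 7.74 and 4.84 against 15.7, 12.6 and 9.32 CPM.

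Of the rest of the family, 30 of 31 ligands and 21 of 21 receptors on the list were in the files. Ccl19, a ligand of CCR7 on dendritic and T cells, was lower over all nuclei kept, with 7, 9 and 14 UMIs in LPA and 19, 51 and 27 in vehicle libraries (log2 fold-change -1.60, SE 0.37, edgeR adjusted p = 0.0398). Meningeal cells held 3, 3 and 4 of these UMIs against 11, 27 and 12, and meningeal nuclei numbered 1151 in LPA and 3050 in vehicle libraries. Per UMI, the meningeal level of Ccl19 was 2.75, 1.80 and 3.51 against 5.31, 7.94 and 3.87 CPM, with no overlap and no call. The Ccl19 call was lost without any 1 of LPA 1, LPA 2, LPA 3, vehicle 2 or vehicle 3 (log2 fold-change -1.89 to -1.21). Over all nuclei 1 of 13 ligands and 0 of 11 receptors tested were called by edgeR (3 and 4 at an unadjusted p under 0.05). Of all 20207 genes tested there, 5.62% were called and 4225 had an unadjusted p under 0.05 by edgeR. The median log2 fold-changes were 0.04 and -0.0044 beside -0.01 for all genes tested. Fos and Junb, immediate-early genes, were called higher in astrocytes (log2 fold-change 1.90 and 1.68), and Dusp1 in ciliated ependymal cells (1.77). Over all nuclei kept, the sums in which Ccl3 and Ccl4 were called, Fos (1.44, adjusted p = 0.00387) and Atf3 (1.20, adjusted p = 0.0301 by edgeR) were called higher, and their part in those results was not tested.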

How the data were processed

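Single-nucleus RNA-seq with 10x 3′ chemistry was measured in 3 LPA and 3 vehicle libraries. The authors deposited filtered matrices of raw UMI counts from Cell Ranger 4.0.0, made with an mm10 pre-mRNA reference that includes introns and without normalization. Members and lists were chosen with earlier results of these data known, and limits for naming clusters were set once clusters had been seen. After the study's filters, nuclei had 300 genes or more, up to 1% mitochondrial UMIs and no UMI outlier, for which a factor of 1.5 interquartile ranges was chosen here. Scanpy 1.11.5 with leidenalg 0.10.2 (Python 3.11.15) clustered nuclei at resolution 1 (3000 variable genes, 40 principal components, 30 neighbors), leaving out members, listed, mitochondrial and sex-linked genes. Names were given to 33 of 40 clusters, each needing 3 markers seen in 10% of nuclei; differences from the study may come from these rebuilt names. Sub-clusters of immune and vascular nuclei used 2000 variable genes. Doublet calls by Scrublet took 12.3% to 15.4% of nuclei per library and were removed in an alternative only.

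UMIs were summed by library and cell type, given at least 10 nuclei in each library, and CPM was computed from the sums. Quasi-likelihood tests were run in edgeR 4.0.16 under R 4.3.3, with TMM scaling and filterByExpr, and p-values were Benjamini-Hochberg adjusted over the genes tested in each type. A call needed adjusted p < 0.05 together with an absolute log2 fold-change of 0.25 or more. Genes missing the filter were compared by a two-sided exact permutation test (20 assignments, smallest p 0.1) and by ratios of counts with exact 95% Poisson intervals, which like all intervals and floors here cover counting error only; a group at 0 was set to 3 counts. Shares have exact binomial (Clopper-Pearson) intervals. Libraries of a group differed by more than counting error (chi-square over degrees of freedom 12.5 to 25.0). The labels give no origin beyond separate samples, so p-values measure the spread between these samples. In data simulated at the real depths, 46.7% of genes changed 2-fold were called in macrophages, 58.4% in microglia and 89.3% in neurons.

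All 9 members are named, with the 3 genes most correlated with each member of at least 100 vehicle UMIs and the other chemokine genes that were called, of which 1 is not reported here. Positions are from GENCODE M21 on GRCm38, counted from 1, and promoters from RefSeq. Alternatives were RLE factors, DESeq2 1.42.0, no filter on low counts, a replicate block, each library left out, no mitochondrial filter, no doublets, Leiden resolution 2 and all deposited barcodes. Fits within clusters and without LPA-rich sub-clusters were added after seeing the data.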

Additional observations from a re-analysis of the deposited data

Results flagged for a closer look

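Cx3cr1 differed between groups of nuclei in direction, since every LPA library lay above every vehicle library in macrophages and below in microglia. The log2 fold-change in macrophages exceeded that in microglia by 1.88 and that in homeostatic microglia by 1.45. These differences were not tested, and the macrophage libraries held 22 to 64 nuclei each.

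Signals also appeared in barcodes that the comparisons by cell type did not use. In nuclei without a name Ccl3 had 20, 6 and 27 UMIs in LPA and 0, 4 and 0 in vehicle libraries (ratio per UMI 14.7, counting interval 5.40 to 55.8), and Ccl4 had 24, 11 and 22 against 0, 5 and 1 (ratio 10.5, 4.54 to 29.8). No main cluster without a name held more than 2 LPA UMIs of either gene, so most of them lay in sub-clusters without a name. Some of these were sub-clusters of the immune cluster with leading genes of another class, such as that led by Slc1a2. There Ccl3 had 9, 3 and 3 UMIs against 0, 0 and 0.

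In barcodes removed for a UMI count over the limit, Ccl4 had 8, 3 and 3 UMIs against 3, 1 and 0 (ratio 4.01, 1.26 to 16.7), where LPA 2 and LPA 3 equal vehicle 1 in counts and exceed it per UMI. In barcodes removed for over 1% mitochondrial UMIs, Ccl2 had 14, 18 and 21 UMIs against 3, 11 and 16 (ratio 3.55, 2.23 to 5.76), and Ccl4 had 7, 4 and 7 against 5, 7 and 4 (ratio 2.26, 1.09 to 4.74). Both ratios are per UMI of these barcodes, of which LPA libraries had 310 to 413 and vehicle libraries 479 to 567. They held 1.50e+06 UMIs in LPA and 3.01e+06 in vehicle libraries, and the raw counts of both genes overlapped between the groups. Among these barcodes, the cluster led by Ecrg4 had 1, 0 and 3 UMIs of Ccl4 against 1, 2 and 1. The cluster led by Lyz2 had 5, 4 and 4 against 4, 5 and 3, so a rise of Ccl4 was not seen in their counts. The libraries may not be independent in these clusters, as described below.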

How the results depend on the processing

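Of 242 alternative values of the log2 fold-changes, 220 kept their direction and their side of the threshold, 10 lost the call, 9 gained it and 3 turned in sign: Cxcl14 within the Gfap-led astrocytes (0.65), and Cxcl12 in endothelial cells without LPA 2 (0.03) and without vehicle 1 (0.23; -0.24 to 0.23 over libraries left out). The calls held in each alternative that gave a value for Ccl3 and Ccl4 in microglia and over all nuclei (Ccl3 in microglia could not be fitted without the mitochondrial filter, where it missed the filter on low counts), for Cx3cr1 in microglia (-0.76 to -0.53) and, fits within clusters apart, for Cxcl14 in astrocytes (-0.48 to -0.37), whose highest adjusted p was 0.0266. Cxcl12 in oligodendrocytes was called in 12 of 13 (-0.79 to -0.54). The cause of the changes that follow was not tested. Leaving out a library moved the number of members called to between 0 and 1 in oligodendrocytes, 0 and 1 in immature interneuron precursors, 0 and 1 in homeostatic microglia (Ccl3), 0 and 1 in ciliated ependymal cells (Cxcl12 at -2.76 without LPA 2 and -2.36 without vehicle 1) and 2 and 4 over all nuclei, where Cxcl10 (3.76) and Cx3cr1 (0.74) were called without vehicle 2. With all libraries, Ccl3 in homeostatic microglia and Cxcl12 in ciliated ependymal cells missed the filter on low counts and were not tested. In the fits without a library that called them, Ccl3 passed that filter through the LPA libraries alone. Cxcl12 passed it there through the vehicle libraries alone. Other chemokine genes called then ranged from 0 to 3 over all nuclei. Without the filter on low counts, members called were 2 in astrocytes (with Cxcl10), and 1 each in immature interneuron precursors (Cx3cl1), homeostatic microglia (Ccl3), macrophages (Cx3cr1 at 1.3) and ciliated ependymal cells (Cxcl12). Without the mitochondrial filter 1 member was called in endothelial and 1 in ciliated ependymal cells, Cxcl12 in both, and Cxcl12 was also called over all nuclei (-0.46, adjusted p = 0.0440). At Leiden resolution 2, 2 members (Ccl3, and Cx3cr1 at -0.49) were called in homeostatic microglia. Over all nuclei, DESeq2 called Cx3cr1 (0.56) and 2 other genes (Ccl19 and Ccr9), and 0 other genes were called without doublets. Same-numbered libraries correlated at 0.262, 0.522 and -0.114. LPA 2 correlated best with the same number, and LPA 1 and LPA 3 with another. So few correlations cannot show whether the numbers pair the libraries. With the replicate block, 1 member was called in astrocytes, 3 in microglia and 3 over all nuclei, where Cx3cr1 (0.57, adjusted p = 0.00958) joined Ccl3 and Ccl4. Leaving doublets out moved 6 of 57 vehicle levels by over 1 SD, among them Cx3cr1 in choroid plexus epithelium to 216 CPM. Depth limits Ccl2, Cxcl10 and Cxcr4, most of whose counts per type and library are under 10. Fits within single clusters and without LPA-rich sub-clusters were chosen after seeing the data.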

Other observations

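Among barcodes over 1% mitochondrial UMIs, Ccl2 lay mostly in a vascular cluster led by Ecrg4, Mgp and Dcn, genes of fibroblasts, with 8, 7 and 9 UMIs in LPA and 2, 10 and 5 in vehicle libraries, and in a cluster without a name led by Lyz2 and Plac8, genes of blood leukocytes, with 3, 8 and 12 against 1, 1 and 9. Each of the 6 libraries had 142 to 159 barcodes of the first and 91 to 103 of the second cluster over the limit. Whether these are the barcode sequences shared between libraries was not tested, so the libraries may not be independent in these clusters. The second cluster also held Ccl3, with 12, 6 and 3 UMIs against 6, 3 and 8, and the groups overlapped.

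When no mitochondrial filter was used, 1 immune sub-cluster was led by Ccl3, Ccl4 and Cd83, a gene of activated antigen-presenting cells. It held 261 LPA and 9 vehicle nuclei and was left without a name.

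In the neuronal clusters Cxcl14 varied with the leading gene. It had 53.5, 55.9 and 40.5 CPM in LPA and 87.2, 100.3 and 65.5 CPM in vehicle libraries in the cluster led by Vip, an interneuron neuropeptide, without overlap, and 68.0, 70.5 and 84.8 against 161, 76.1 and 80.9 CPM in the cluster led by Drd3, with overlap. Cx3cl1 had 112, 94.7 and 105 against 141, 105 and 108 CPM in neurons led by Drd2, a dopamine receptor gene, and 12.9, 27.7 and 19.9 against 15.3, 26.6 and 24.3 CPM in those led by Reln. These values were not tested.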
